A study of Mus musculus with 28 samples.

Results

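Amino acid transporter genes are described here across the spleen arrays of a mouse study of dietary abscisic acid (ABA), a plant hormone, and lipopolysaccharide (LPS), a component of the bacterial outer membrane. Members were taken by symbol: every gene with a single-gene probe set whose name starts with Slc1a, Slc3a, Slc6a, Slc7a, Slc36a, Slc38a or Slc43a. The 7 prefixes take in 63 genes, the rule leaves out 3, and 60 remain of 18193 genes named by the arrays. Of these, 57 are carriers and 3 (Slc7a6os, Slc36a1os and Slc6a19os) are opposite-strand genes that share a symbol prefix with a carrier but are not carriers themselves. Several members are neurotransmitter, osmolyte or creatine carriers of the Slc6a family rather than carriers of protein-building amino acids.

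RNA from spleen, described by the protocols as splenocytes, was hybridised to 28 one-colour arrays in 2 experiments. The wild-type-only experiment held 12 arrays: mice on control or ABA diet, 4 arrays of each diet with LPS and 2 of each without. The two-genotype experiment held 16 arrays: wild-type and null mice on either diet, with or without LPS, 2 arrays in each of 8 groups. Both genotypes carry the floxed PPAR g allele (PPAR g flfl). Null mice carry MMTV-Cre+, in which the MMTV promoter drives the recombinase, and wild-type mice are MMTV-Cre-. The labels call the null mice spleen-specific in one place and epithelial and immune cell-specific in another, and give no age, LPS dose or time after LPS. Nothing in them ties each array of a group to an animal of its own. The p-values then rest on the spread between arrays, which may be technical.

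Cells import amino acids through carriers that differ in substrate and in driving force. Heavy chains such as Slc3a2 carry light chains of the Slc7a family to the plasma membrane, where the pair exchanges large neutral or cationic amino acids. Slc7a1 brings in arginine and lysine, Slc38a carriers take up glutamine and other small neutral amino acids with sodium, Slc36a carriers move them with protons, and Slc43a carriers let large neutral amino acids pass down their gradient. Activated lymphocytes and macrophages are known for raising glutamine, leucine and arginine uptake, and red cell precursors for importing glycine and glutamine as they make heme.

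Values are the deposited log2 expression values, so a difference of 1 is a doubling. Levels of different genes come from different probes and are not set against each other. Levels of the experiments are not compared either. Separate normalisation was read from their different lowest values, and the labels do not state it. The lowest value was 2.29 on the wild-type-only arrays and 2.24 on the two-genotype arrays, and 35.9% to 41.9% of an array's probe sets lay at it. Any pair of arrays from the same experiment had a correlation of at least 0.942. On 4 arrays Cpa1, a pancreatic enzyme gene, exceeded the lowest value by over 2 log2 units: control diet with LPS replicate 2 and control diet without LPS replicate 1 of the wild-type-only experiment, and replicate 2 of both null groups without LPS. Results that change without these arrays are given both ways. Xist, which female cells express, was above 5 on all 12 wild-type-only arrays and on 6 of 16 two-genotype arrays, unevenly over the groups: among wild-type arrays on the control diet it was so on both with LPS and on neither without. With a term for this mark the members called for LPS in the two-genotype experiment were the same 5 and 2. The spleen markers Ms4a1 of B cells, Cd3e of T cells and Spic of red pulp macrophages were at 7.57 or above on all arrays. The Pparg probe set lay between 2.29 and 3.70 over both experiments, too near the lowest value to check the genotype labels. In bulk RNA, fewer cells of a type and less RNA per cell cannot be told apart.

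Promoters are shown first for 7 of the 8 members called in an LPS comparison, so that the 5 that fell (Slc43a2, Slc38a6, Slc38a5, Slc6a20a and Slc38a9) can be set beside 2 that rose (Slc7a1 and Slc7a6). The other called member is Slc7a5. Each line is the 250 bases before an annotated transcription start, from RefSeq on GRCm38.p6, 5′ to 3′ on the gene's strand. Slc43a2, Slc7a1 and Slc7a6 have 2 windows each, of which the one with the lower coordinates is shown.
Slc43a2 (chr11:75531444-75531693, forward strand): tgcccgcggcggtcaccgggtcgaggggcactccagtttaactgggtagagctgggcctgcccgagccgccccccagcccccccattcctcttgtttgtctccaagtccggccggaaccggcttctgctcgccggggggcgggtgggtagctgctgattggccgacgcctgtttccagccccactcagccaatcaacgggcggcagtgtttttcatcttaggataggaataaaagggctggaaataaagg
Slc38a6 (chr12:73286598-73286847, forward strand): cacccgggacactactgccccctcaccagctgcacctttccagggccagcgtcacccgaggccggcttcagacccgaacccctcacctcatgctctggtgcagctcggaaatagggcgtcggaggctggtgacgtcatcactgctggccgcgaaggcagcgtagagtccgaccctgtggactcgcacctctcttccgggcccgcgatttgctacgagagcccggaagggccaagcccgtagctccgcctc
Slc38a5 (chrX:8271131-8271380, forward strand): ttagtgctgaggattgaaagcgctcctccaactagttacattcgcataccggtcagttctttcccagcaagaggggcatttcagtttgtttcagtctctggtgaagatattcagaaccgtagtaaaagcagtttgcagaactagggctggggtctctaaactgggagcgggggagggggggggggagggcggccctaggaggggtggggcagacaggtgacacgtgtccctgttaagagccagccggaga
Slc6a20a (chr9:123678833-123679082, reverse strand): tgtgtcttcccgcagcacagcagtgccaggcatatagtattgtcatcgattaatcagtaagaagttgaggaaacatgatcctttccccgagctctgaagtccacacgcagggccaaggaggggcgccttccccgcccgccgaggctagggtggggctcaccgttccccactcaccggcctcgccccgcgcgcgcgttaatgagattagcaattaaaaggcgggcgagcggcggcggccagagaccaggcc
Slc38a9 (chr13:112660516-112660765, forward strand): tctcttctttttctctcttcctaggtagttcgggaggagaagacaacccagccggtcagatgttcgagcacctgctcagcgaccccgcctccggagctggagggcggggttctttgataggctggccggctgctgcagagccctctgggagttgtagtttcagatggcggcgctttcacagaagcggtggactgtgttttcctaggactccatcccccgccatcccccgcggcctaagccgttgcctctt
Slc7a1 (chr5:148392816-148393065, reverse strand): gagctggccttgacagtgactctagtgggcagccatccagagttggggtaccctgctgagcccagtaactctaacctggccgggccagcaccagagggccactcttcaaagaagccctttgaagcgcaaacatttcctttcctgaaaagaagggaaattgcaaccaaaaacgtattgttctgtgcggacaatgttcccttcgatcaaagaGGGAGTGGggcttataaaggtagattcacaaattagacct
Slc7a6 (chr8:106168604-106168853, forward strand): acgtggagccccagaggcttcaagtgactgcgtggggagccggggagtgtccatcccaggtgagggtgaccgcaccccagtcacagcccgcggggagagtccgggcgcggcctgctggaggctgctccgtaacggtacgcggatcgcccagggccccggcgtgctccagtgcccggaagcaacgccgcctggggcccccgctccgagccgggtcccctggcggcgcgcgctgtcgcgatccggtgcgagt
Capitals mark a match to CCACNCCC, a motif of KLF factors, searched on both strands, so that a match on the other strand reads as its reverse complement. RefSeq windows were matched for 44 of the 60 members, 65 windows in all, since some genes have several starts. The KLF motif was in 10 of these 65 windows and in 15.9% of all 32851 promoter windows, and among the 7 sequences shown it was in that of Slc7a1, whose other window lacks it. The motif AGATAA of GATA factors, also searched on both strands, was in 4 of 65 member windows, those of Slc3a1, Slc7a7 and Slc7a9, and in 9.99% of all windows. The element TGATGNAA of C/EBP and ATF factors, searched likewise, was in 3 of 65 member windows, of Slc6a21 and Slc7a7, and in 3.45% of all. Neither of the last motifs was in a window shown. A match describes these letters and says nothing of binding.

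Which carriers are measurable in spleen came first. A gene was tested in an experiment if its probe set, the one with the highest mean where a gene has several, exceeded the lowest value by over 0.5 log2 units on 2 or more arrays. By this measure 19 members passed in the wild-type-only experiment, 30 in the two-genotype experiment, and 30 in neither. All 3 facilitative Slc43a carriers passed in both. Of 9 sodium-coupled Slc38a carriers 6 and 7 passed, with Slc38a3 and Slc38a4 in neither. Of 9 light chains 3 and 4 passed, and the light chains Slc7a9, Slc7a10, Slc7a12, Slc7a13 and Slc7a15 passed in neither. The heavy chain Slc3a2 passed in both, whereas Slc3a1, the heavy chain of kidney and intestine, was at the lowest value on every array. Among 4 cationic carriers and relatives, Slc7a1 and Slc7a3 passed in both, Slc7a4 in the two-genotype experiment, and Slc7a14 in neither. Slc1a5 was the glutamate or neutral exchanger that passed in both experiments, Slc1a3 passed in the two-genotype experiment, and the other 4 of that class (Slc1a1, Slc1a2, Slc1a6 and Slc1a7) in neither. Proton-coupled carriers passed in the two-genotype experiment only by this filter, 3 of 4. Of 11 Slc6a members classed as neurotransmitter or osmolyte carriers, the glycine carrier Slc6a9 among them, 1 and 5 passed. Of 9 Slc6a members classed as amino acid carriers only Slc6a20a did. Slc7a6os was the opposite-strand gene that passed.

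**Figure D1:**
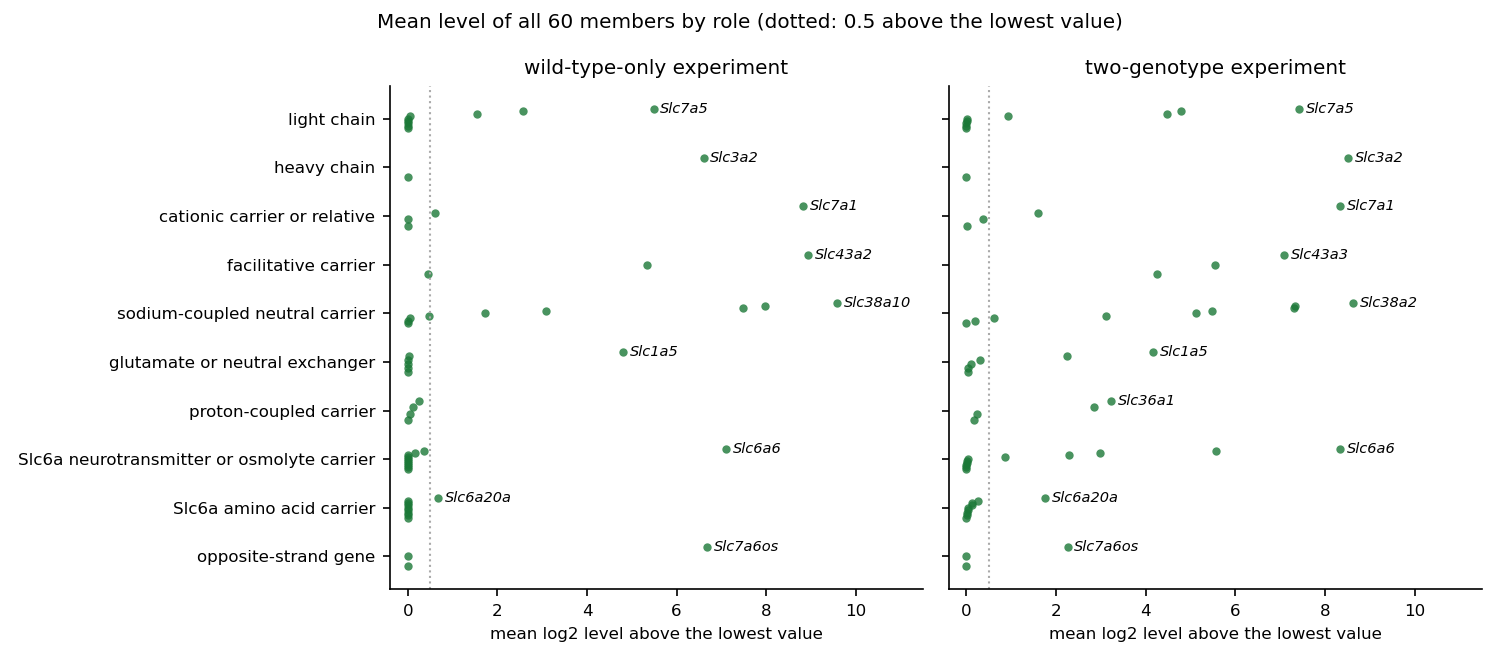
Mean log2 level above the lowest value (horizontal axis) of each of the 60 members, grouped by role (vertical axis), in the wild-type-only and two-genotype experiments. Each point is 1 gene's probe set, the dotted line lies 0.5 above that value, and 1 gene of each role that leaves the lowest value is labelled for orientation. Levels of different genes are not comparable, so the plot shows which genes leave the lowest value: most of the 30 members that passed in neither experiment pile up at 0.

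Mean levels over all arrays of the wild-type-only and the two-genotype experiment were 7.78 and 9.67 for the light chain Slc7a5 and 8.89 and 10.8 for the heavy chain Slc3a2. They were 11.1 and 10.6 for the cationic carrier Slc7a1 and 9.40 and 10.6 for Slc6a6, the taurine carrier. In the wild-type-only experiment Slc38a10 averaged 11.9 and Slc43a2 11.2, and in the two-genotype experiment Slc38a2 averaged 10.9 and Slc43a3 9.32. Slc1a5, the glutamine exchanger, averaged 7.10 and 6.41. A few tested members repeated 1 value on most arrays, within 0.02: Slc7a7 at 4.86 on 11 of 12 arrays, and in the two-genotype experiment Slc7a4 at 3.85 on 11 of 16, Slc36a1 at 5.33 on 10 of 16, Slc38a7 at 2.84 on 9 of 16 and Slc6a8 at 5.23 on 9 of 16. Others repeated a value at or near the lowest: Slc36a2 on 11 of 16 arrays, and in the wild-type-only experiment Slc38a5 and Slc43a1 on 9 of 12, Slc7a3 on 8 and Slc6a20a on 7. Differences of these genes rest on the remaining arrays. Slc6a16, at 4.19 on 1 array, and Slc36a3, at 2.84 on 1 array, were the members passing in neither experiment that left the lowest value by over 0.5.

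LPS against no LPS, averaged over the diets, is the comparison in which members changed. Of the members tested in the wild-type-only experiment (8 arrays with LPS, 4 without) 4 of 19 passed limma's test at an adjusted p of 0.05, beside 37.1% of all 9256 genes tested. Slc7a5 and Slc7a1 rose, 2 of 19 where 21.2% of genes rose, and Slc43a2 and Slc38a6 fell, 2 of 19 where 15.9% fell. In wild-type mice of the two-genotype experiment (4 against 4) 5 of 30 passed, beside 19.0% of 11087 genes. Slc7a6 rose, 1 of 30 beside 11.3% of genes, and Slc43a2, Slc38a5, Slc6a20a and Slc38a9 fell, 4 of 30 beside 7.76%. In null mice (4 against 4) 2 of 30 passed, beside 9.76% of genes. Slc43a2 and Slc38a6 fell, 2 of 30 beside 4.69%, and 0 rose, beside 5.07%. These shares are no result about the members as a group. Slc43a2 is the member called in all 3. The median change of the tested members was 0.06, -0.15 and -0.49 in these comparisons, beside 0.01, 0.02 and -0.06 over all genes tested. At an unadjusted p under 0.05 the members numbered 8, 10 and 9, which is 42.1%, 33.3% and 30.0% of those tested, beside 47.0%, 32.3% and 26.0% of all genes.

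**Figure D2:**
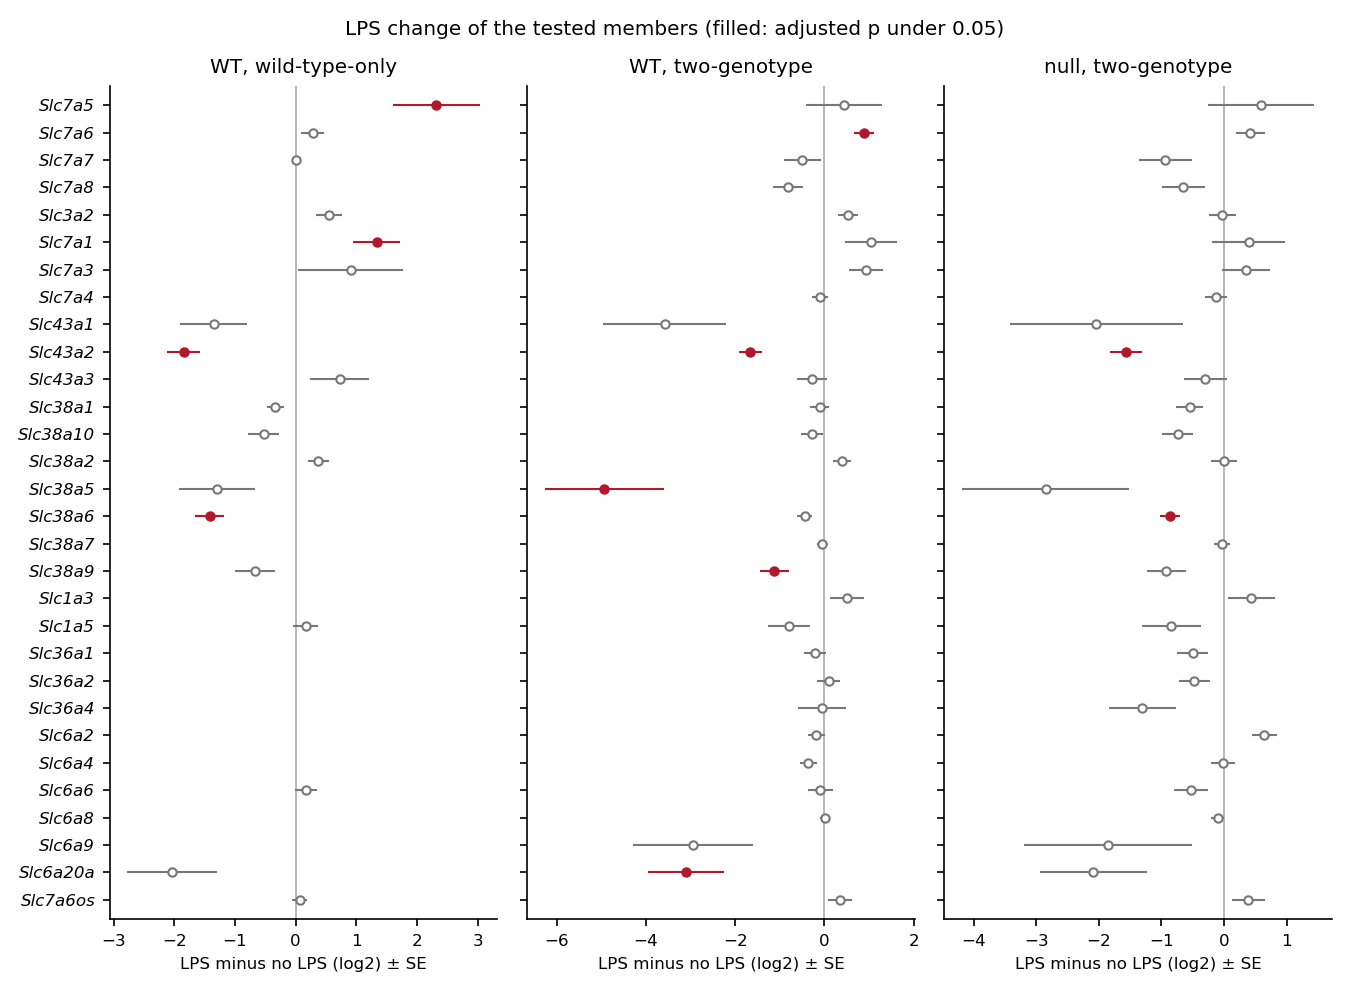
LPS minus no LPS on the log2 scale (horizontal axis, ± SE from limma) for every member tested (vertical axis), in wild-type mice of the wild-type-only experiment, wild-type mice of the two-genotype experiment and null mice. Filled red points passed at an adjusted p of 0.05: 4, 5 and 2 members, with Slc43a2 left of 0 in every panel.

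Slc43a2, a facilitative carrier of leucine, phenylalanine and other large neutral amino acids, fell in both experiments and both genotypes. In the wild-type-only experiment it was at 12.67 and 12.24 on the ABA arrays without LPS and at 12.50 and 12.43 on the control diet arrays. With LPS it was at 10.96, 9.73, 11.08 and 11.26 on the ABA diet and at 10.77, 10.72, 10.43 and 9.96 on the control diet. Every array with LPS lay below every array without. The change was -1.85 ± 0.28 (SE), a 3.6-fold decrease, with an adjusted p of 0.000656 from limma.

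Slc43a2 in wild-type mice of the two-genotype experiment was at 9.22 and 8.41 (control) and 7.85 and 8.83 (ABA) without LPS. It was at 6.50 and 6.80 (control) and 7.35 and 6.99 (ABA) with LPS, again with no overlap. Null mice had 8.87, 8.61, 8.73 and 8.32 without LPS and 6.98, 6.84, 7.44 and 6.98 with it, and these did not overlap either. The changes were -1.66 ± 0.26 (SE; adjusted p = 0.00219, 3.17-fold) and -1.57 ± 0.26 (adjusted p = 0.00434, 2.97-fold) in limma's fit. Their difference between genotypes was 0.10 ± 0.36 (adjusted p = 0.978), so the fit neither separates the genotypes nor shows them to be alike.

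The Slc43a2 call held with each array left out in turn in all 3 comparisons. A second Slc43a2 probe set gave smaller differences of -1.37, -0.96 and -0.56, and another lay near the lowest value on nearly all arrays. With the mean of all its probe sets the null change was -0.73 and its adjusted p 0.0539. Macrophage markers moved beside it: their summed level over 10 genes was 70.9 to 80.6 with LPS and 81.9 to 88.3 without in the wild-type-only experiment, 88.7 to 101 and 96.1 to 108 in wild-type mice of the two-genotype experiment, and 90.8 to 98.0 and 100.4 to 111 in null mice. Of those 10 markers 3 fell and 2, 1 and 1 rose in the 3 comparisons. Of all genes tested 15.9%, 7.76% and 4.69% fell and 21.2%, 11.3% and 5.07% rose. None of the defining markers was absent (Spic 7.71 to 9.73 and 9.76 to 11.8, Cd68 4.74 to 6.39 and 8.11 to 10.5). Within the 8 groups of the two-genotype experiment, the array with the higher macrophage sum had the higher Slc43a2 in 7, and so did the array with the higher neutrophil sum. Between LPS and no LPS neutrophil markers went the other way in that experiment. Their summed levels were 81.4 to 91.7 with LPS and 67.3 to 75.5 without in wild-type mice. There 5 of 10 rose, beside 11.3% of all genes tested. The part of these markers in the Slc43a2 result was not tested.

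**Figure D3:**
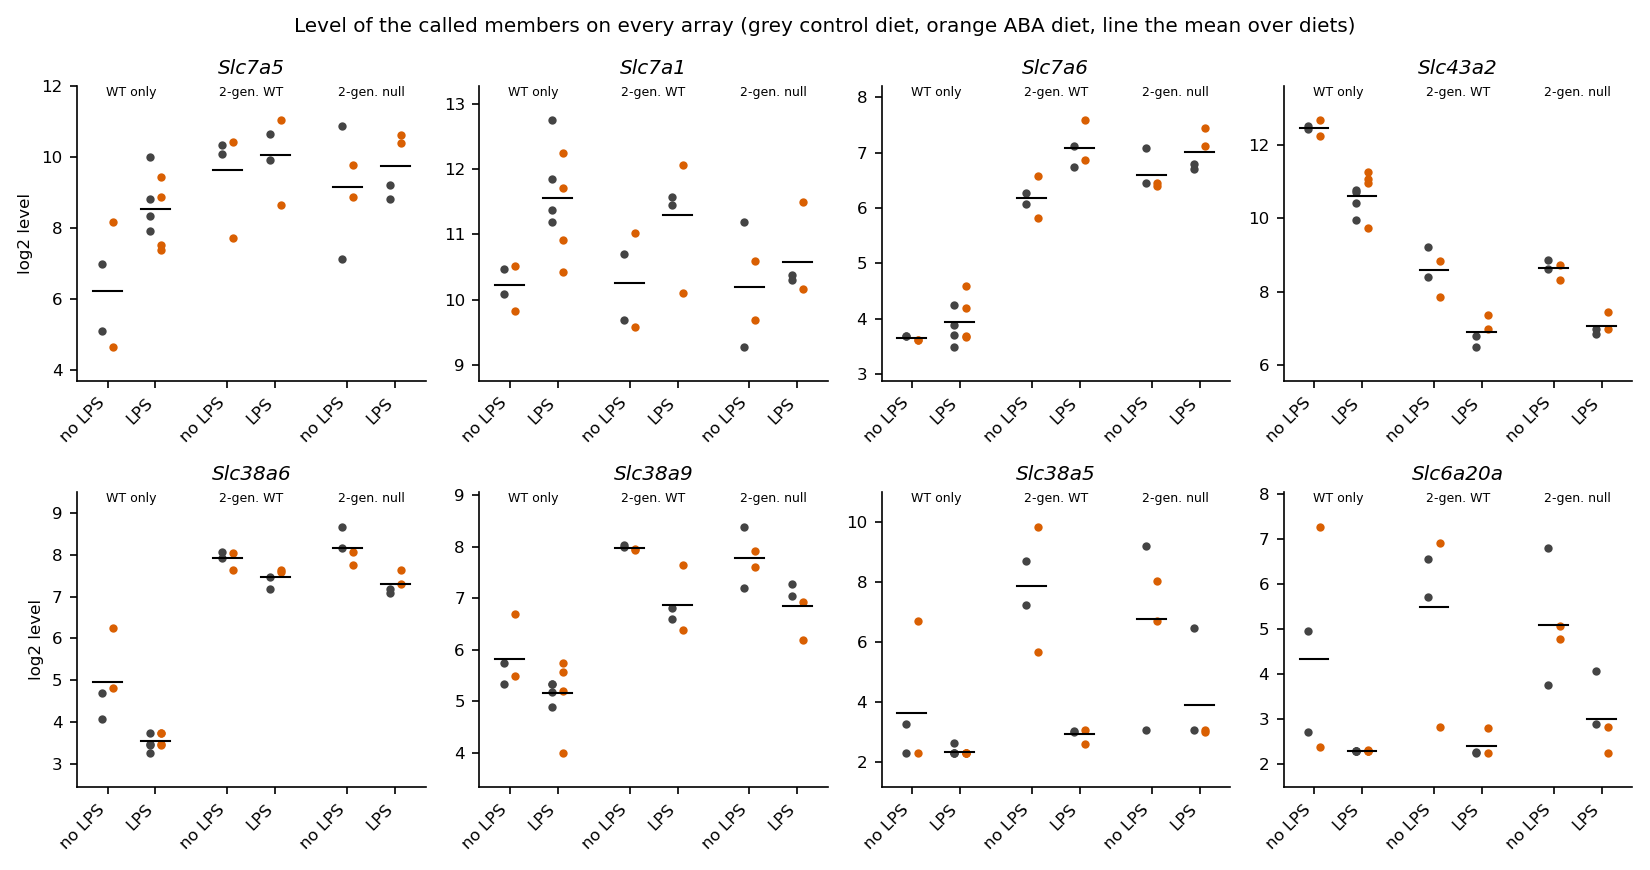
Log2 level (vertical axis) on every array of the 8 members called in an LPS comparison, without and with LPS (horizontal axis), in wild-type mice of the wild-type-only experiment, then in wild-type and null mice of the two-genotype experiment. Points are arrays (grey control diet, orange ABA diet) and lines are means over diets. Slc43a2 does not overlap between LPS and no LPS in any of the 3 comparisons, whereas Slc7a5 overlaps in all of them.

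Among the other facilitative carriers, Slc43a1, which also carries large neutral amino acids, was called in no LPS comparison with all arrays. In the two-genotype experiment wild-type arrays without LPS ranged from 5.08 to 9.62 (median 9.02) and those with LPS from 4.51 to 4.71. The difference of -3.58 ± 1.38 (SE) had an adjusted p of 0.100 in limma's fit. Without the arrays with high Cpa1, which are null arrays and change only the spread here, its adjusted p was 0.0363. The Slc43a1 difference was -1.35 (adjusted p = 0.0771) among the wild-type-only arrays and -2.04 (adjusted p = 0.382) in null mice. On the wild-type-only arrays Slc43a1 passed the filter on 2, both without LPS, so only a fall could be called there. Slc43a3, known as a purine base carrier despite its family, had differences of 0.72, -0.28 and -0.30, none called.

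Light and heavy chains form the exchangers for leucine and related amino acids. Slc7a5, the main leucine-importing light chain, was at 8.18 and 4.66 (ABA) and 7.0 and 5.09 (control) without LPS in the wild-type-only experiment. With LPS it was at 7.39, 9.45, 8.90 and 7.54 (ABA) and at 7.94, 8.34, 8.81 and 10.02 (control). The groups overlap, since 1 array without LPS (ABA replicate 1) was above 3 of the 8 arrays with LPS. It rose by 2.32 ± 0.72 (SE), 4.99-fold, with an adjusted p of 0.0287 in limma's fit. The call was lost without ABA with LPS replicate 3 (adjusted p = 0.0523), control with LPS replicate 4 (0.0506), control without LPS replicate 2 (0.126) or ABA without LPS replicate 2 (0.112).

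In the two-genotype experiment Slc7a5 was not called, with differences of 0.43 ± 0.85 (SE; adjusted p = 0.782) in wild-type and 0.59 ± 0.85 (adjusted p = 0.704) in null mice. Without LPS its wild-type arrays already spanned 7.74 to 10.4, and with LPS they spanned 8.66 to 11.1. Slc3a2, the heavy chain it pairs with, was at 9.08 ± 0.39 (SD, n = 8) with LPS and 8.53 ± 0.34 (n = 4) without in the wild-type-only experiment. That difference of 0.55 had an adjusted p of 0.0672. For wild-type mice of the two-genotype experiment it was 0.53 (adjusted p = 0.122) and in null mice -0.03 (adjusted p = 0.960), so Slc3a2 passed in no comparison fitted within 1 experiment.

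Slc7a6, a light chain that exchanges cationic for neutral amino acids, rose in wild-type mice of the two-genotype experiment. It was at 5.82 and 6.58 (ABA) and 6.06 and 6.27 (control) without LPS, and at 6.87, 7.59, 6.73 and 7.11 with it, with no overlap. The change was 0.89 ± 0.23 (SE), 1.86-fold, with an adjusted p of 0.0237 in limma's fit. A second probe set gave 1.34. The call was lost when any of 4 arrays was left out (ABA without LPS replicate 1, ABA with LPS replicate 2, control without LPS replicate 1 or control with LPS replicate 2), at adjusted p-values up to 0.0955. In null mice the difference was 0.42 (adjusted p = 0.284), and in the wild-type-only experiment 0.28 (adjusted p = 0.276). The second probe set gave 1.12 in null mice and 0.765 in the wild-type-only experiment. Slc7a8, another light chain, had differences of -0.81 and -0.65 in wild-type and null mice, and Slc7a7, the light chain known for lysine export and for its role in macrophages, of -0.50 and -0.94, none called. The opposite-strand gene Slc7a6os differed by 0.06 to 0.39 in the 3 comparisons.

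Slc7a1, the arginine and lysine importer, rose in the wild-type-only experiment. It was at 10.52 and 9.82 (ABA) and 10.46 and 10.09 (control) without LPS. With LPS it was at 10.42, 12.24, 11.71 and 10.91 (ABA) and 11.19, 11.37, 11.85 and 12.76 (control). The groups overlap through ABA with LPS replicate 1 alone. The change was 1.33 ± 0.38 (SE), 2.52-fold, with an adjusted p of 0.0204 in limma's fit. Its other probe sets gave 1.93 and 1.09 there. The call was lost without control replicate 2 (adjusted p = 0.0761) or ABA replicate 2 (0.0706) of the groups without LPS. It was also lost without the arrays with high Cpa1 (0.0588), without a filter on low values (0.0675), with the erythroid list as a term (0.0746) and with the replicate number as a block (0.148).

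The Slc7a1 difference in wild-type mice of the two-genotype experiment was 1.05 ± 0.58 (SE; adjusted p = 0.249) and in null mice 0.40 ± 0.58 (adjusted p = 0.711). Slc7a3, another cationic carrier, was at or near the lowest value on all arrays without LPS in both experiments. Among arrays with LPS it reached 6.76 on ABA replicate 2 and 4.89 on control replicate 4 of the wild-type-only experiment, and 4.28 and 3.77 on replicate 2 of the wild-type ABA and control groups of the two-genotype experiment. Its differences of 0.91, 0.93 and 0.35 were not called. Slc7a3 passed the filter in both experiments only on arrays with LPS, so only a rise could be called.

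The same arrays stood high for Slc7a1, Slc7a5 and the amino acid response genes, a list of 25 genes of the ATF4 pathway by which cells answer a shortage of amino acids. In the wild-type-only experiment the highest list mean with LPS was on ABA replicate 2 (8.94) and on control replicate 4 (8.79), which also had the highest Slc7a1, Slc7a5, Slc7a3, Slc7a6 and Slc3a2 of their groups. Within the 8 groups of the two-genotype experiment, the array with the higher list mean had the higher Slc7a1 in 7, the higher Slc7a5 in 7 and the higher Slc3a2 in 5. The order was as frequent for the purine carrier Slc43a3, in 7, and for Slc6a20a and Slc7a6os, in 6 each. Slc38a6 was higher on that array in 1 of 8. These orders are a description of pairs of arrays.

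Of the sodium-coupled carriers of the Slc38a family, 1 of 6, 2 of 7 and 1 of 7 tested fell with LPS in the 3 comparisons. Of all genes tested 15.9%, 7.76% and 4.69% fell. In this family 0 rose, beside 21.2%, 11.3% and 5.07% of all genes. Counts this small are no result about the family. Slc38a6, a glutamine and glutamate carrier, was at 6.24 and 4.83 (ABA) and 4.71 and 4.06 (control) without LPS among the wild-type-only arrays, and at 3.26 to 3.73 (median 3.47) with LPS. No array overlapped. The change was -1.42 ± 0.24 (SE), a 2.68-fold decrease, with an adjusted p of 0.00122 in limma's fit. In null mice it was at 8.06, 7.75, 8.67 and 8.17 without LPS and 7.64, 7.29, 7.18 and 7.08 with it, without overlap, and changed by -0.86 ± 0.16 (adjusted p = 0.00935, 1.82-fold). In wild-type mice of the two-genotype experiment the difference was -0.44 ± 0.16 (adjusted p = 0.0897). Both calls held with each array left out in turn.

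Slc38a9, the lysosomal arginine sensor and carrier that acts on mTORC1, fell in wild-type mice of the two-genotype experiment. Its level without LPS was 7.98 ± 0.04 (SD, n = 4), and with LPS it was at 7.64, 6.39, 6.82 and 6.6, all below. The change was -1.12 ± 0.32 (SE), 2.18-fold, with an adjusted p of 0.0341 in limma's fit. That call was lost in 9 of 16 fits that left out 1 array, at adjusted p-values of 0.0531 to 0.12. Those 9 arrays were all 8 wild-type arrays except ABA with LPS replicate 1, and both null arrays on the control diet with LPS, whose removal changes only the estimated spread. The difference was -0.92 (adjusted p = 0.0972) in null mice and -0.66 (adjusted p = 0.140) in the wild-type-only experiment, and its other probe sets also had negative differences.

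Slc38a1 and Slc38a2, widespread glutamine carriers, did not pass. Slc38a2 differed by 0.37 (adjusted p = 0.121), 0.39 (adjusted p = 0.217) and -0.00 in the 3 comparisons, and Slc38a1 by -0.33 (adjusted p = 0.0970), -0.11 and -0.55. The Slc38a1 probe set is of a kind that may bind several transcripts. A second Slc38a1 probe set gave 0.37, 0.01 and -0.62, with the opposite sign in the wild-type-only experiment. Slc38a10 differed by -0.53, -0.28 and -0.74 (adjusted p = 0.0935), and the exchanger Slc1a5 by 0.17, -0.78 and -0.84.

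Slc38a5, a glutamine and glycine carrier known from red cell precursors, fell in wild-type mice of the two-genotype experiment. It was at 9.84 and 5.65 (ABA) and 7.23 and 8.70 (control) without LPS and at 3.05, 2.60, 3.02 and 3.01 with it. The groups lie far apart, and those with LPS lie within 1 unit of the lowest value, so the change of -4.94 ± 1.33 (SE; adjusted p = 0.0282 in limma's fit) rests on the levels without LPS. In null mice 1 array without LPS (control replicate 1, 3.06) was as low as most with LPS, 1 array with LPS was at 6.46, and the difference of -2.85 ± 1.33 had an adjusted p of 0.209. In the wild-type-only experiment 2 arrays without LPS stood out, at 6.69 and 3.25, and the difference was -1.30 (adjusted p = 0.129). Slc38a5 passed the filter there on these 2 arrays alone, so only a fall could be called.

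Slc6a20a, a proline carrier, fell in wild-type mice of the two-genotype experiment. Of the 9 Slc6a members classed here as amino acid carriers, a class without the glycine carrier Slc6a9, only Slc6a20a passed the filter. It was at 6.91 and 2.83 (ABA) and 5.72 and 6.55 (control) without LPS and at 2.25, 2.82, 2.25 and 2.28 with it. The lowest array without LPS (2.83) and the highest with LPS (2.82) were nearly level. The change was -3.10 ± 0.85 (SE; adjusted p = 0.0299 in limma's fit). It was -2.09 (adjusted p = 0.153) in null mice and -2.03 (adjusted p = 0.0544) in the wild-type-only experiment, where no array with LPS exceeded 2.32. There Slc6a20a passed the filter on 2 arrays, both without LPS, so only a fall could be called. Slc6a9, the glycine carrier that supplies heme synthesis, was not called, with differences of -2.95 (adjusted p = 0.159) and -1.85 (adjusted p = 0.418). The Slc38a5 and Slc6a20a calls were each lost in 7 of 16 fits that left out 1 array: 7 of the 8 wild-type arrays, all but ABA without LPS replicate 2, at adjusted p-values of 0.0561 to 0.0933 and 0.0605 to 0.0914.

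Markers of red cell precursors are given beside Slc38a5, Slc6a20a, Slc43a1 and Slc6a9. Of the 12 erythroid genes with a probe set, 6 of 10 tested fell in the wild-type-only experiment (median change -2.84), 10 of 11 in wild-type mice of the two-genotype experiment (-4.77) and 0 of 11 in null mice (-1.60). Of all genes tested 15.9%, 7.76% and 4.69% fell in these comparisons. The summed log2 level of the erythroid genes was 50.7 to 75.2 with LPS and 63.6 to 115 without in the wild-type-only experiment, against 64.3 to 81.4 and 111 to 142 in wild-type mice of the two-genotype experiment. In null mice it was 83.2 to 117 and 83.8 to 139, which overlap. The defining marker Klf1 ranged from 2.29 to 8.66 and from 3.55 to 12.2 in the 2 experiments. The null array with Slc38a5 at 3.06 without LPS (control replicate 1) had the lowest erythroid sum of the null arrays without LPS, 83.8, and the null array at 6.46 with LPS had the highest with LPS, 117.

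Within the 8 groups of the two-genotype experiment, the array with the higher erythroid sum had the higher Slc43a1 in 8, the higher Slc38a5 in 7, the higher Slc6a20a in 7 and the higher Slc6a9 in 6. Slc6a2, the noradrenaline carrier, was higher on that array in 8 and Slc43a3 in 6. Slc7a1 and Slc7a5 were each higher on that array in 6 of 8, and Slc43a2 in 1 of 8. For the array with the higher sum of pancreas markers, the counts were 6 for Slc43a1, 7 for Slc38a5, 5 for Slc6a20a and 4 for Slc6a9. In an alternative chosen after the data were seen, with the mean of the erythroid list as a term, the wild-type Slc38a5 and Slc6a20a differences were 0.48 (adjusted p = 0.842) and 0.26 (adjusted p = 0.881), the opposite sign. Among wild-type arrays that list does not overlap between LPS and no LPS, so the term and LPS cannot be told apart there. Slc7a6 was then 0.17 (adjusted p = 0.775), while Slc43a2 stayed called in all 3 comparisons. In null mice more members were called for LPS with the term than without it. The erythroid markers' part in these results was not tested.

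**Figure D4:**
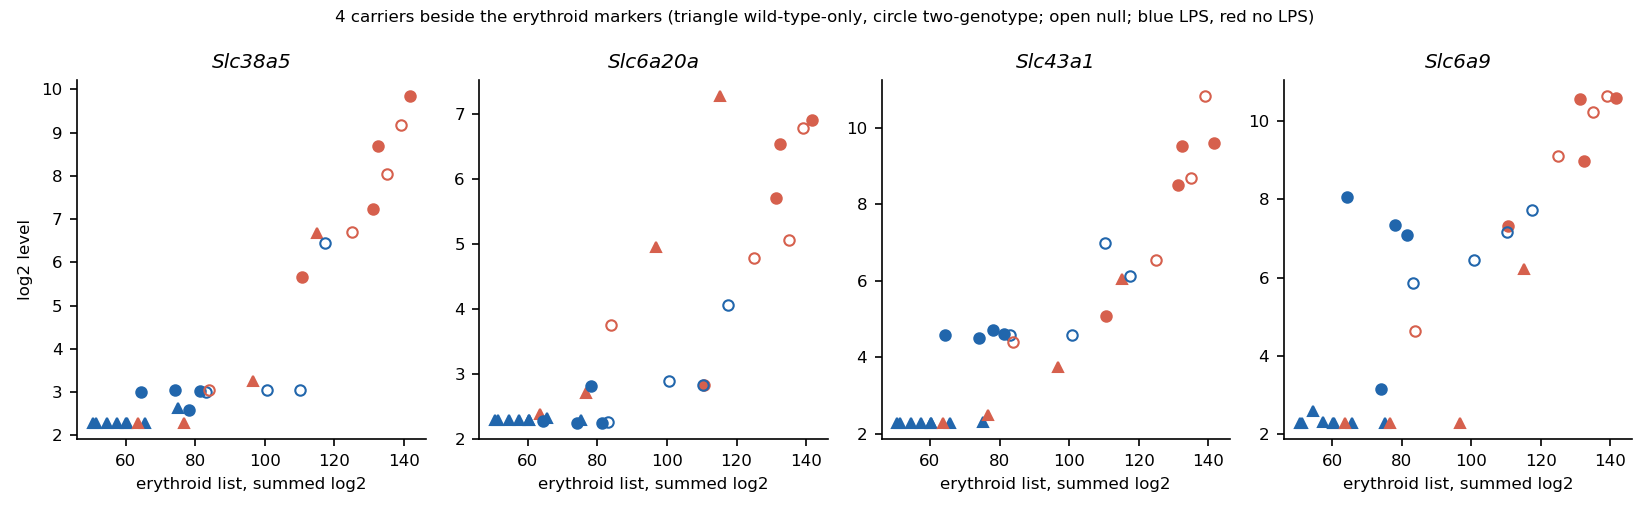
Log2 level (vertical axis) of Slc38a5, Slc6a20a, Slc43a1 and Slc6a9 against the summed log2 level of 12 erythroid markers (horizontal axis) on every array. Triangles are the wild-type-only and circles the two-genotype experiment, open symbols null mice, blue with LPS and red without. Slc38a5 is above 4 only on arrays with a sum of 110.7 or more.

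The remaining tested members were proton-coupled and neurotransmitter carriers, and none passed in an LPS comparison. Slc36a4, Slc36a1 and Slc36a2, which move small neutral amino acids with protons, differed by -1.30, -0.50 and -0.47 in null mice and by -0.06, -0.22 and 0.09 in wild-type mice. Slc6a2, the noradrenaline carrier, differed by 0.64 (adjusted p = 0.0648) in null and -0.18 in wild-type mice. Slc6a4, the serotonin carrier of platelets, differed by -0.36 (adjusted p = 0.212) and -0.02, and Slc6a6 by 0.17, -0.09 and -0.53. Slc1a3, a glutamate carrier, differed by 0.51 and 0.43.

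High Cpa1 touched the null comparison. Without the arrays with high Cpa1, each null group without LPS is 1 array, replicate 1. The control one had an erythroid sum of 83.8 and the ABA one of 125. Members called in that fit had null LPS differences of -1.74 (Slc43a2), -1.06 (Slc38a6), -1.30 (Slc38a9), -1.01 (Slc38a10), -0.93 (Slc36a1), -0.93 (Slc36a2) and 0.83 (Slc6a2). All arrays gave -1.57, -0.86, -0.92, -0.74, -0.50, -0.47 and 0.64 in this order. Those lone arrays are assumed to vary like the other groups. Slc36a2 passed the filter only on these 2 arrays. Leaving out control null without LPS replicate 2 alone, or either wild-type ABA array without LPS, also moved the number of members called. The latter changes only the estimated spread. The number of all genes called moved as well when single arrays were left out, so the counts here are no result about the members. The wild-type count of 5 in the two-genotype experiment fell to 1 (Slc43a2) without ABA without LPS replicate 1, ABA with LPS replicate 2, control without LPS replicate 1 or control with LPS replicate 2. It was 3 without control without LPS replicate 2 and 2 without control with LPS replicate 1.

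Centring each array on its median moved the median change of all genes by over 0.1 in the wild-type-only experiment, to -0.15. All genes then split into 1411 that rose and 2418 that fell, where the deposited scale gave 1961 and 1473, and 8 of 19 members were called in place of 4, beside 41.4% of genes. The added ones, all lower, were Slc38a1, Slc38a10, Slc43a1 and Slc6a20a. Slc43a1 and Slc6a20a passed the filter there on 2 arrays each, all without LPS. With LPS they lay at or near the lowest value, so only a fall could be called for them. Among null arrays the split was 864 and 468 with centring and 562 and 520 without, and the members called were the same 2. Directions of the 8 members called on the deposited scale were kept with centring. With the 20 wild-type arrays of both experiments in 1 fit and the experiment as a term, 12 of 29 members were called, beside 38.3% of genes. There Slc7a5 (1.51), Slc7a1 (1.21), Slc7a6 (0.54), Slc3a2 (0.54) and Slc38a2 (0.38) rose, and Slc43a2 (-1.77), Slc38a5 (-2.86), Slc6a20a (-2.49), Slc43a1 (-2.31), Slc6a9 (-1.80), Slc38a6 (-1.0) and Slc38a9 (-0.86) fell.

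Genes that surround the carriers in amino acid metabolism were described from 4 lists. Of the ATF4 list 17 of 23 tested genes rose on the LPS arrays of the wild-type-only experiment, 9 of 25 in wild-type and 5 of 25 in null mice of the two-genotype experiment, beside 21.2%, 11.3% and 5.07% of all genes, and 0 fell. Its median change was 1.49, 1.05 and 0.78. Wars, a tryptophan tRNA synthetase also known as an interferon-induced gene, rose by 2.35, 3.56 and 3.00. Psat1, a serine synthesis enzyme, rose by 2.19, 2.63 and 2.23, and the stress factor Atf3 by 2.67, 2.78 and 2.96. Cebpb rose by 2.74, 2.92 and 2.60 and Nupr1 by 2.33, 3.12 and 2.04, with adjusted p-values of 0.0425 or less for all 5 in limma's fit. Several of these genes also belong to the general inflammatory response.

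Carriers outside the member families moved in both directions. Slc15a3, a lysosomal histidine and peptide carrier, rose by 1.84, 4.09 and 3.36. Slc16a10, a carrier of tryptophan, tyrosine and phenylalanine, fell by 2.22 and 4.48 in the wild-type comparisons and differed by -2.53 in null mice (adjusted p = 0.0989). The mitochondrial carriers Slc25a12 (0.61, wild-type-only), Slc25a22 (0.73, wild-type of the two-genotype experiment) and Slc25a29 (0.88, null) each rose in 1 comparison. In all, 2 of 9, 2 of 14 and 2 of 14 tested genes of this list rose and 1, 1 and 0 fell. Of all genes tested 21.2%, 11.3% and 5.07% rose and 15.9%, 7.76% and 4.69% fell.

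Enzymes of glutamine, branched-chain and serine metabolism and genes of the mTORC1 pathway were described in the same way. Gpt2, a mitochondrial alanine aminotransferase, rose by 3.34, 3.01 and 2.08, and Got1, an aspartate aminotransferase, by 2.5 and 2.32 in the wild-type comparisons. Bcat1, which acts on leucine, isoleucine and valine, rose by 3.13 in wild-type mice of the two-genotype experiment. Glul (-0.76), the glutamine synthetase, and Shmt1 (-0.82) fell in null mice. The counts were 3 of 12 rising, 3 of 15 rising, and 1 rising and 2 falling of 15. Of all genes tested 21.2%, 11.3% and 5.07% rose and 15.9%, 7.76% and 4.69% fell in the same comparisons. Those shares stand beside the counts of the mTORC1 genes too. Of the mTORC1 and lysosomal sensing genes, 1 of 20 rose (Rheb, 0.67) and 4 fell (Flcn -0.75, Lamtor2 -0.51, Tsc1 -0.26 and Sesn3 -0.87) in the wild-type-only experiment. None of 27 passed in wild-type mice of the two-genotype experiment (3 at an unadjusted p under 0.05 in limma's fit), and Deptor (-0.90) fell in null mice.

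**Figure D5:**
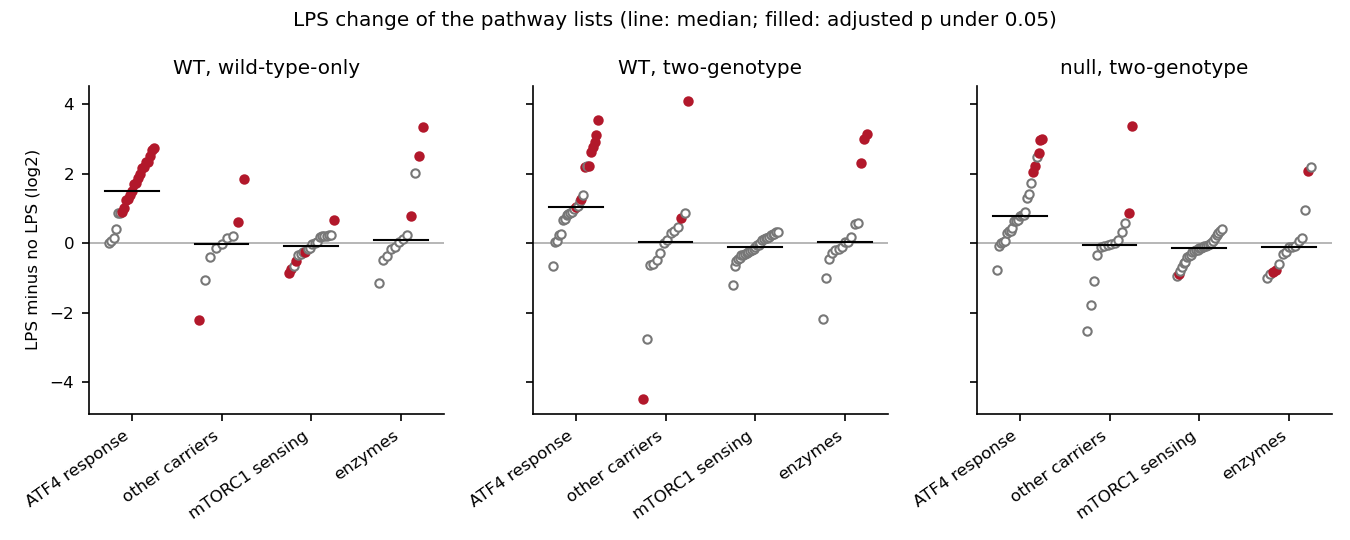
LPS minus no LPS on the log2 scale (vertical axis) for every tested gene of 4 lists (horizontal axis): ATF4 amino acid response, carriers outside the member families, mTORC1 and lysosomal sensing, and enzymes. Panels are wild-type mice of the wild-type-only experiment, wild-type mice of the two-genotype experiment and null mice. Points are genes, filled red where the adjusted p was under 0.05, and lines are medians. The ATF4 list has medians of 1.49, 1.05 and 0.78, and those of the other lists lie between -0.15 and 0.08.

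No member was called for diet. ABA was compared with control diet with LPS (0 of 19 members called, beside 0.130% of genes tested) and without LPS (0 of 19, beside 0.205%) in the wild-type-only experiment. In the two-genotype experiment it was compared in wild-type (0 of 30, beside 0.0271%) and null mice (0 of 30, beside 0%), with LPS and no LPS averaged. At an unadjusted p under 0.05 limma's fit had 0, 1, 0 and 1 members. With LPS the smallest p was that of Slc38a10 (0.52 ± 0.30 SE, adjusted p = 0.553). Without LPS it was that of Slc38a6 (1.15 ± 0.39, adjusted p = 0.323), which was 6.24 and 4.83 on the ABA and 4.71 and 4.06 on the control arrays. Slc6a2 had the smallest p in wild-type (0.30 ± 0.19, adjusted p = 0.780) and null mice (0.55 ± 0.19, adjusted p = 1.00).

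The difference of the LPS change between diets was called for 0 of 19 members, with 0% of all genes called and 0 members at an unadjusted p under 0.05 in limma's fit. Slc38a6 again had the smallest p (-1.03 ± 0.47 SE, adjusted p = 0.713). Both this comparison and ABA without LPS turn on 1 array. Without ABA without LPS replicate 2, 5 members were called in each: Slc38a5, Slc38a6, Slc43a1, Slc43a3 and Slc6a20a. All genes called in these fits numbered 752 (8.18%) and 464 (5.04%). The ABA group without LPS is then replicate 1 alone, whose erythroid sum of 115 was the highest of that experiment. That lone array is assumed to vary like the other groups. Slc38a5, Slc43a1 and Slc6a20a passed the filter only on it and on control without LPS replicate 1.

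No member was called for genotype. Null against wild-type was called for 0 of 30 members with LPS and 0 of 30 without, beside 0.00902% of genes in each, and the difference of the LPS change between genotypes for 0 of 30, beside 0.0180%. Members at an unadjusted p under 0.05 in limma's fit numbered 0, 1 and 1. The one in both was Slc6a2, at -0.69 ± 0.19 (SE) without LPS (adjusted p = 1.00) and 0.83 ± 0.28 for the difference of LPS changes (adjusted p = 0.940). With LPS the smallest p was that of Slc3a2 (-0.45 ± 0.22, adjusted p = 1.00). Leaving out the arrays with high Cpa1 leaves 1 array in each null group without LPS. Slc36a2 was then 0.95 higher in null than in wild-type mice without LPS. Those 2 null arrays, at 2.81 and 3.75, are the only ones of the experiment on which it passed the filter. The gene was thus tested only through the group in which it was high. Slc36a2 lay at 2.24 to 3.75 over the experiment, near the lowest value.

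Over these 8 diet, genotype and interaction comparisons none of the widely used carriers was called. Slc7a5 differed by -0.84 ± 1.43 (SE) to 0.91 ± 0.85, Slc7a1 by -0.71 ± 0.58 to 0.20 ± 0.58 and Slc3a2 by -0.56 ± 0.31 to 0.42 ± 0.35. Slc1a5 differed by -0.51 ± 0.47 to 0.55 ± 0.47, Slc38a1 by -0.44 ± 0.31 to 0.32 ± 0.29, Slc38a2 by -0.39 ± 0.29 to 0.36 ± 0.35 and Slc6a6 by -0.44 ± 0.38 to 0.26 ± 0.36. Slc43a2, which LPS lowered by over 1.5 units, differed by 0.29 or less in the diet comparisons, which average LPS and no LPS in the two-genotype experiment. Differences of opposite sign cancel in that average. Wild-type arrays there were at 7.35 and 6.99 (ABA) and 6.50 and 6.80 (control) with LPS. Without LPS they were at 7.85 and 8.83 (ABA) and 9.22 and 8.41 (control). These fits do not show that the carriers are alike between diets or genotypes, since changes within those errors would not have been called.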

How the data were processed

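Spleen RNA of 28 arrays was analysed from the deposited log2 values, 1 per probe set (45101 probe sets) and array. GCRMA and limma stand in the submitters' processing notes, without versions or roles. The log2 scale was read from the values. The lowest value differs between the experiments, which were therefore fitted apart. Scanner files were not used here. Groups came from the labels for diet, genotype and LPS, and the experiment from the titles. Background handling can hold low genes at 1 value, which hides changes there.

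GEO's platform annotation gave the gene names: 34945 probe sets name 1 gene, 932 several and 9224 none (64 are controls), and only the first were used. The probe set with the highest mean over all arrays stood for a gene, and 29 members had more than 1. The filter on low values is given with the results. Group means were compared by limma (version 3.58.1, R 4.3.3) through lmFit and eBayes (8 residual and 1.95 or 2.01 prior degrees of freedom), with Benjamini-Hochberg adjustment over all genes tested at 0.05, and the scripts were tested on simulated data. SE is limma's, and a printed SD is that of the arrays. Marker sums add log2 values over a list. Promoters were scanned in Python 3.11.15, and figures were drawn with matplotlib 3.10.9.

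The members and the lists (4 pathway and 14 cell type or tissue lists) were chosen with earlier results of these data known. Named are members called for LPS or LPS by genotype, those with the highest mean of a role, 8 widely used carriers, the smallest p-values of the other comparisons and up to 3 rising and 3 falling genes of a pathway list. The genes Slc43a1, Slc6a9, Slc7a3 and the other members not taken by this rule were named after their values were seen, to account for each role. Alternatives were normalisation, filters, the probe set, the variance model, the replicate number, leaving out arrays and a joint fit. Leaving out the arrays with high Cpa1, an erythroid term and a term for high Xist were chosen after seeing the data.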

Additional observations from a re-analysis of the deposited data

Results flagged for a closer look

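In the wild-type-only experiment, 4 of 38 groups of 4 arrays held a value that stood apart from the other 3 by Dixon's test at the 95% level. Chance flags about 1 in 20 groups of normally spread values. In all 4 flagged groups the other 3 arrays lay at or near a repeated or lowest value. Even a small departure is flagged there, so the count cannot be set against that rate. Slc38a5 was at 2.63 on 1 control diet array with LPS, beside 2.29 on the others. Slc7a3 was at 6.76 on 1 ABA array with LPS, where the others were at 2.29 to 2.40, and at 4.89 on 1 control diet array with LPS, where the others were at 2.29 to 2.39. Slc7a7 was at 4.84 on 1 ABA array with LPS, beside the value of 4.86 that the other 3 share.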

How the results depend on the processing

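Member counts for LPS that moved by over 1.5 times were, in wild-type mice of the wild-type-only experiment (4 members), 8 with median centring and 12 with the 20 wild-type arrays in 1 fit. In wild-type mice of the two-genotype experiment (5 members) they were 1 without a filter on low values, 3 with the erythroid list as a term and 12 in the joint fit. In null mice (2 members) they were 7 without the arrays with high Cpa1 and 9 with the erythroid term, and null against wild-type without LPS went from 0 to 1 without those arrays. Leaving out each array in turn gave 3 to 5, 1 to 6 and 2 to 6 members for LPS, 0 to 5 for ABA without LPS and for diet by LPS (both wild-type-only), and 0 in the remaining comparisons. With the erythroid term the wild-type changes of Slc38a5 (0.48) and Slc6a20a (0.26) in the two-genotype experiment turned sign. LPS and the erythroid list do not overlap among those arrays and cannot be told apart. The number of all genes called for LPS also moved between the fits that left out 1 array. The shares of all genes called with centring and in the joint fit are given above. Moves of the member counts are therefore no result about the members.

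Whether the replicate numbers pair the arrays was not settled. Same-numbered arrays' deviations from their group means correlated at -0.18 to 0.39 and -0.70 to 0.52, and 5 of 12 and 6 of 16 arrays matched their own number best. In groups of 2 arrays the deviations mirror each other, so the values of the two-genotype experiment cannot decide it. With the replicate block the LPS counts were 3, 5 and 2 members, and Slc7a1 (adjusted p = 0.148) and Slc7a5 (0.154) were not called. Without a filter, Slc7a1 (adjusted p = 0.0675) and Slc7a5 (0.0914) were not called, nor were Slc7a6 (0.0547), Slc38a5 (0.0832), Slc38a9 (0.0851) and Slc6a20a (0.0858). Taking the mean of all probe sets moved 21 of 38 levels by over 1 SD. Values at the lowest value limit what can be seen, since a fall below it leaves no trace.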
